A study of Mus musculus with 4 samples.

Results

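The genes that drive osteoclast formation, RANKL (Tnfsf11), its decoy receptor osteoprotegerin (Tnfrsf11b), its receptor RANK (Tnfrsf11a), the adaptor TRAF6 (Traf6), the cytokines CSF1 (Csf1) and IL-34 (Il34) and their receptor CSF1R (Csf1r), were followed in RNA-seq of mouse calvarial bone. These genes were chosen by name, by a rule that used no measured value, though with earlier results of these data known. All 7 were among the 23946 gene symbols measured. The study asked how loss of 1 copy of Twist1, a basic helix-loop-helix transcription factor, affects the skull bones of different embryonic origin. RNA was taken from the frontal bone, which derives from neural crest, and from the parietal bone, which derives from mesoderm, of wild-type mice and of Twist1+/- mice at postnatal day 21, on a C57BL/6J background with 12 mice of each strain. The Twist1+/- mice are heterozygous in the germline, so the loss is not limited to bone, and the labels name no other allele or treatment in either genotype. The bone taken for RNA-seq included pericranium and dura mater beside the bone plate, so every level below is that of a mixed tissue. The study speaks of replicates. A single set of values for each genotype and bone is analysed here, called a library below, 4 in all. Whether a set pools replicates or mice is not stated, so differences cannot be checked against replicates, and SDs, intervals and p-values are not given.

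Osteoclasts are multinucleated cells of the monocyte lineage that dissolve bone. Their precursors need CSF1R signalling to survive and RANK signalling to differentiate; RANKL is made by osteocytes, osteoblasts and activated lymphocytes, and osteoprotegerin, secreted mainly by osteoblast lineage cells and B cells, binds RANKL and keeps it from RANK. The balance of RANKL to osteoprotegerin is therefore a common measure of how strongly a bone favours osteoclast formation, and loss of TRAF6, RANK, RANKL or CSF1 in mice gives dense, unresorbed bone.

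Promoter sequence was looked at because Twist1, the gene that differs by design, binds E-boxes, sites of the form CANNTG. The 250 bases before the annotated start of Tnfsf11, Tnfrsf11a and Traf6 are shown, the first because it encodes the ligand of the ratio followed below and the others because both peaked in wild-type parietal bone. They come from RefSeq on GRCm38.p6, whose promoter table held 4 of the 7 genes (Csf1 is the fourth), and they are printed 5′ to 3′ on the strand of the gene with each CANNTG in capitals.
Tnfsf11, chr14:78308044-78308293, minus strand: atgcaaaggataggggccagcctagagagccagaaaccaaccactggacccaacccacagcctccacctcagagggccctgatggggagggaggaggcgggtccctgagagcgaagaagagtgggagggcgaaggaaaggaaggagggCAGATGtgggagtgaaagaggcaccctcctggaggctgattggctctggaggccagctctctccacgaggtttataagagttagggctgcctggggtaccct
Tnfrsf11a, chr1:105780473-105780722, plus strand: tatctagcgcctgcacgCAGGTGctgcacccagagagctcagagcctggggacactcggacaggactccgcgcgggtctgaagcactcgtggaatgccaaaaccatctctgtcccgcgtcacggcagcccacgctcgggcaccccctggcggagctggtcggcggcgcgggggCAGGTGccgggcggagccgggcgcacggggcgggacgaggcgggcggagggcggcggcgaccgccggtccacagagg
Traf6, chr2:101678170-101678419, plus strand: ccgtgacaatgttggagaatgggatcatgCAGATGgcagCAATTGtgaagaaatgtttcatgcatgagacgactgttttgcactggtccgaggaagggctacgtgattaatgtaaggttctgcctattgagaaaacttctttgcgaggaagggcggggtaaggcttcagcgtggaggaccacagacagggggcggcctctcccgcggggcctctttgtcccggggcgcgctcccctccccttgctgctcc

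The window of Tnfsf11 held 1 match, CAGATG, whose first base lies 102 bases before the start. That of Tnfrsf11a held 2, both CAGGTG, at 233 and 77 bases before the start, and that of Traf6 held 2, CAGATG at 221 and CAATTG at 211 bases. The window of Csf1 held 0. The motif is its own reverse complement, so both strands were searched at once. Such matches are common, since 66.2% of all 32851 RefSeq windows of this length held at least 1 and 31.8% held at least 2, and they describe the sequence without showing that a factor binds there.

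Values are FPKM, reads divided by transcript length and by a library size whose scaling is not stated, so levels can be set side by side between genes. Read numbers are given only as an average over replicates, and FPKM values do not hold the depth of a single library. The most common ratio among genes at 0.005 to 0.1 FPKM in both libraries of a pair was taken as the relative worth of 1 read. It was 1.73 for wild-type parietal over frontal bone and 1.30 for Twist1+/- over wild-type frontal bone. For the parietal library carrying the Twist1+/- label it was 0.986 over wild-type parietal and 1.27 over Twist1+/- frontal bone. These are rough estimates, since 5.59% to 10.6% of those genes lay within 0.05 log2 units of them. The median share at other ratios was 2.14% to 2.51%. A gene was called past a fold threshold, 3-fold unless another is given, when it exceeded that fold with at least 1 FPKM in the higher library. Twist1 itself was at 59.0 FPKM in wild-type and 30.4 FPKM in Twist1+/- frontal bone. In parietal bone it was at 52.5 FPKM in wild type and 50.7 FPKM in the other library, which is therefore called the parietal library labelled Twist1+/- throughout. Bglap, the osteoblast product osteocalcin, lay between 5220 and 7982 FPKM in the 4 libraries, while Col1a1, the main collagen of bone, was at 5595 FPKM in the wild-type parietal library and listed at 0 in the other 3. None of the 7 genes was listed at 0 in any library, and 0 of the 75-base windows of their transcripts occurred in the coding transcripts of another gene.

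The most abundant of the 7 in every library was Csf1r, above the 95th percentile of detected genes (95.2 to 96.2), followed by Csf1 at 15.7 to 24.2 FPKM, while the other 5 lay between 4.29 and 14.3 FPKM. The highest library exceeded the lowest 1.54-fold for Csf1, 1.74-fold for Csf1r, 1.80-fold for Tnfsf11, 2.06-fold for Traf6, 2.10-fold for Tnfrsf11b and for Il34, and 2.70-fold for Tnfrsf11a. Over the 12291 genes at or above 1 FPKM in all 4 libraries the median of this measure was 1.72-fold, and 32.5% of those genes reached 2-fold, so only Tnfrsf11a, at the 86.9th percentile, stood well above the middle of all genes. With 1 library per condition, no neighbours in the order of levels given below can be told apart beyond a spread.

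**Figure D1:**
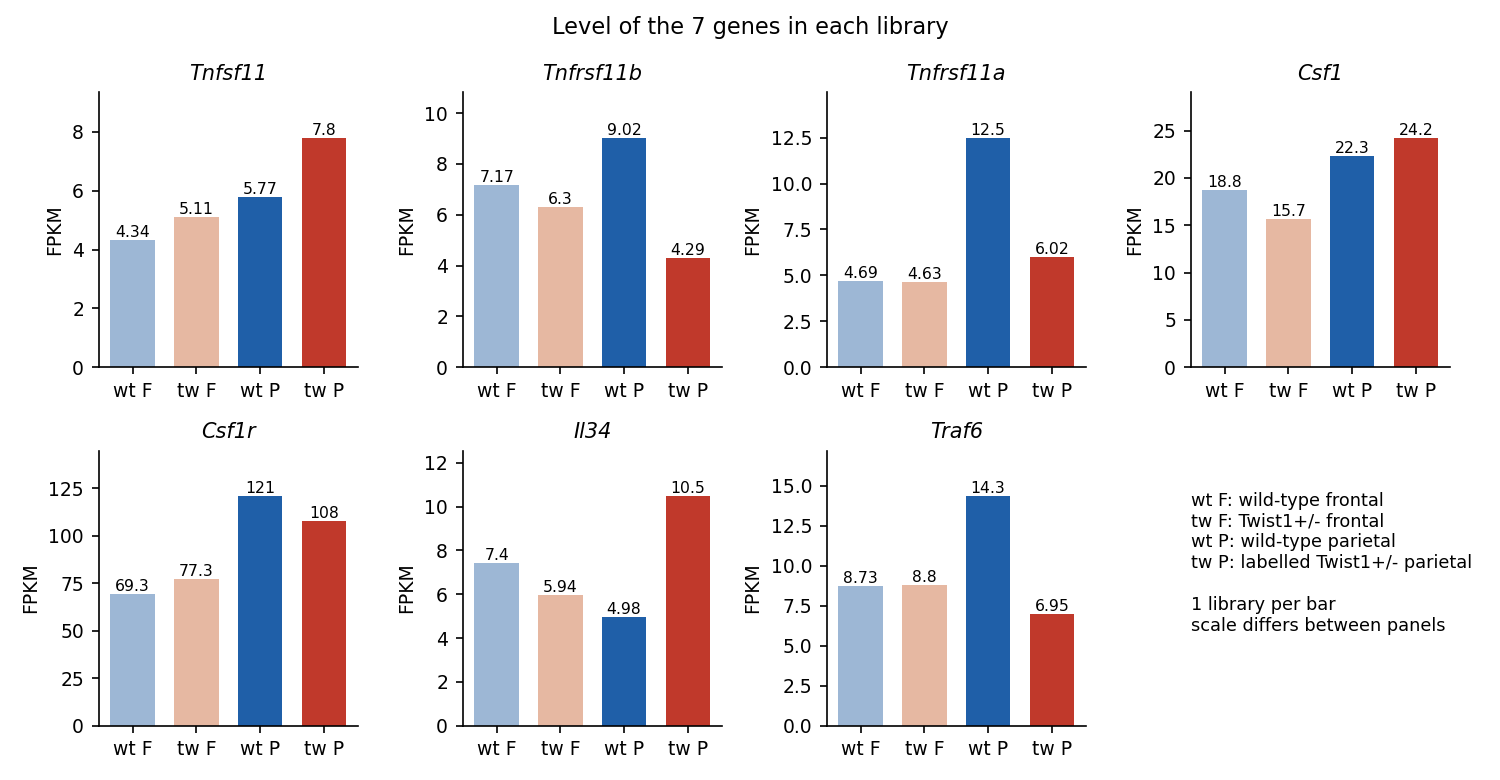
FPKM of each of the 7 genes (vertical axis, scale set for each panel) in the 4 libraries, 1 bar per library with its value printed above. Tnfrsf11a and Traf6 peaked in wild-type parietal bone at 12.5 and 14.3 FPKM, and Il34 peaked in the parietal library labelled Twist1+/- at 10.5 FPKM.

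Tnfsf11 encodes the ligand RANKL and lies at chr14:78677252-78707850 of mm9 on the minus strand, with 5 exons. It was at 4.34 FPKM in wild-type frontal bone, 5.11 FPKM in Twist1+/- frontal bone, 5.77 FPKM in the wild-type parietal library and 7.80 FPKM in that labelled Twist1+/-. The Twist1+/- frontal library was 1.18-fold above wild-type frontal bone, and the parietal library labelled Twist1+/- was 1.35-fold above wild-type parietal bone. Parietal bone was 1.33-fold above frontal bone in wild type, an order that turned when the libraries were scaled to the same Gapdh level (log2 ratio of -0.03), and 1.52-fold above it in the libraries labelled Twist1+/-.

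Tnfrsf11b encodes the decoy receptor osteoprotegerin and lies at chr15:54082174-54110039 on the minus strand, also with 5 exons. Its level was 7.17 FPKM in wild-type frontal, 6.30 FPKM in Twist1+/- frontal and 9.02 FPKM in wild-type parietal bone, against 4.29 FPKM in the parietal library labelled Twist1+/-. The last is the lowest of the 4 and the only one in which osteoprotegerin lay below RANKL. Between the parietal libraries the ratio was 2.10-fold (log2 ratio of -1.07), and between the frontal libraries 1.14-fold (-0.19).

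The ratio of Tnfsf11 to Tnfrsf11b was 0.605 in wild-type frontal bone and 0.639 in wild-type parietal bone. It was 0.812 in Twist1+/- frontal bone and 1.82 in the parietal library labelled Twist1+/-. The wild-type bones therefore differed 1.06-fold, whereas Twist1+/- exceeded wild-type frontal bone 1.34-fold and the parietal library labelled Twist1+/- exceeded wild-type parietal bone 2.84-fold. The libraries labelled Twist1+/- differed 2.24-fold from each other. How often a pair of genes differs this much was not computed. The middle 90% of log2 ratios of single genes between the parietal libraries ran from -1.25 to 1.56. On the log2 scale the parietal difference of 1.51 is made up of 0.43 for Tnfsf11 and -1.07 for Tnfrsf11b, but which gene has the larger part depends on the scaling. With Gapdh at the same level the parts are 0.83 and -0.68, and with GC group medians subtracted they are 0.90 and -0.49. Because both genes were read from the same library, scaling of a library does not touch the ratio. The transcripts also had similar GC content, 44.9% and 42.9%, and after subtraction of the median of genes of like GC content the ratios were 0.621, 0.642, 0.832 and 1.74 in the same order of libraries, with a parietal difference of 2.71-fold. For these ratios the GC groups were formed over genes at or above 1 FPKM in all libraries. For the parts above they were formed within the parietal comparison, so those parts do not add up exactly to the 2.71-fold.

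**Figure D2:**
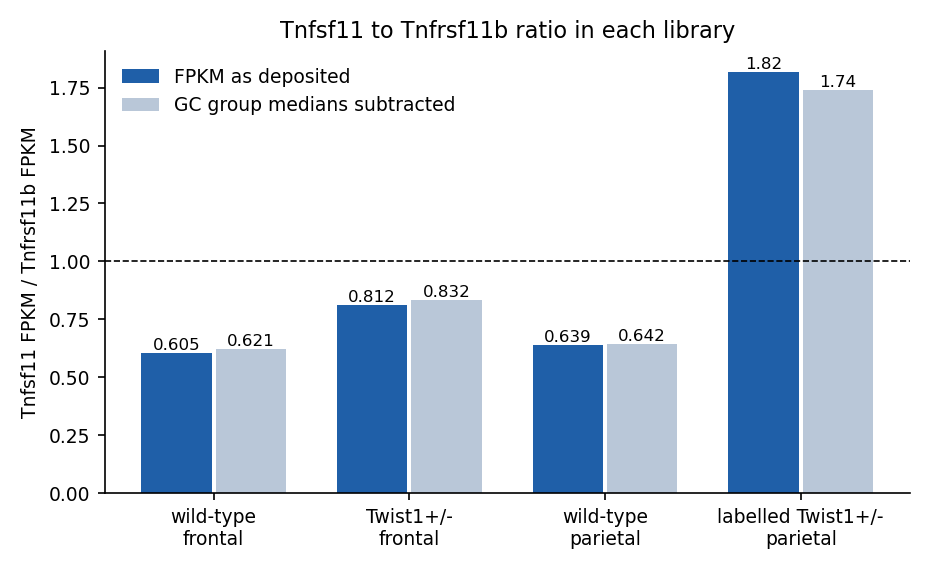
Ratio of Tnfsf11 to Tnfrsf11b FPKM (vertical axis, no unit) in the 4 libraries, as deposited (dark bars) and after subtraction of GC group medians (light bars), with 1 library per pair of bars and a dashed line at 1. The parietal library labelled Twist1+/-, at 1.82 and 1.74, is the only one above 1.

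Markers of cells that make these proteins also differed between the parietal libraries. The summed level of 10 markers of T and B cells was 50.2 FPKM in the wild-type parietal library and 114 FPKM in that labelled Twist1+/-, beside 174.7 FPKM in wild-type and 155 FPKM in Twist1+/- frontal bone, with no marker listed at 0. Of 8 markers tested between the parietal libraries, 2 were past 3-fold, both higher: Ms4a1, the B cell surface protein CD20, and Cd3g, a chain of the T cell receptor complex. The 12 markers of osteoblasts and osteocytes summed to 6376 to 12525 FPKM, and without Col1a1 the remaining 11 were at 6930 FPKM in the wild-type parietal library and 9625 FPKM in that labelled Twist1+/-. That difference is carried by Bglap, at 5220 and 7982 FPKM, since the other 10 summed to 1709 and 1643 FPKM. Sost, the osteocyte product sclerostin, at 18.3 and 75.1 FPKM in the same order, was the only 1 of the 12 higher at 2-fold. Phex, at 75.7 and 30.3 FPKM, and Pdpn, at 52.9 and 24.2 FPKM, were lower at 2-fold. Col1a1 also counts as lower, but only by its listed 0, which is not read as a level. The part of these cells in the ratio was not tested, and in bulk tissue fewer cells of a type and less RNA per cell cannot be told apart.

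Tnfrsf11a encodes RANK, the receptor of RANKL on osteoclasts and their precursors, and lies at chr1:107677300-107744558 on the plus strand, with 10 exons. It was at 4.69 FPKM in wild-type and 4.63 FPKM in Twist1+/- frontal bone, 12.5 FPKM in the wild-type parietal library and 6.02 FPKM in that labelled Twist1+/-. Wild-type parietal bone thus stood apart from the other 3 libraries. Its excess over wild-type frontal bone was 2.66-fold (log2 ratio of 1.41), the largest ratio of any of the 7 genes in any comparison, and its excess over the parietal library labelled Twist1+/- was 2.07-fold.

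Traf6 encodes the adaptor through which RANK reaches NF-κB and MAP kinases, and it also serves Toll-like and interleukin-1 receptors in many cell types. It lies at chr2:101518586-101541826 on the plus strand, with 8 exons. Its levels were 8.73 FPKM in wild-type frontal, 8.80 FPKM in Twist1+/- frontal and 14.3 FPKM in wild-type parietal bone, with 6.95 FPKM in the parietal library labelled Twist1+/-. As for RANK, the frontal libraries were close to each other and wild-type parietal bone was the highest, 1.64-fold above wild-type frontal bone and 2.06-fold above the parietal library labelled Twist1+/-. The ratio of Traf6 to Tnfrsf11a was 1.86 and 1.90 in the frontal and 1.15 and 1.15 in the parietal libraries, so it was lower in both parietal than in both frontal libraries.

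Csf1 encodes the growth factor of macrophages and osteoclast precursors, secreted by osteoblasts among other cells, and lies at chr3:107543966-107563387 on the minus strand, with 9 exons. It was at 18.8 FPKM in wild-type frontal, 15.7 FPKM in Twist1+/- frontal, 22.3 FPKM in the wild-type parietal library and 24.2 FPKM in that labelled Twist1+/-. This was the steadiest of the 7 genes. The parietal libraries differed 1.09-fold, with a log2 ratio of 0.12 that became -0.08 after subtraction of the GC group median, and the excess of wild-type parietal over frontal bone, 1.19-fold, turned to a log2 ratio of -0.20 with Gapdh at the same level.

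Il34 encodes the other ligand of CSF1R, made mainly by keratinocytes and neurons, and lies at chr8:113265729-113329824 on the minus strand, with 8 exons, of which up to 75 bases overlap a gene on the opposite strand. Its level was 7.40 FPKM in wild-type frontal, 5.94 FPKM in Twist1+/- frontal and 4.98 FPKM in wild-type parietal bone, with 10.5 FPKM in the parietal library labelled Twist1+/-. It was 2.10-fold higher in that library than in wild-type parietal bone and 1.25-fold lower in Twist1+/- than in wild-type frontal bone. Csf1 made up 71.7% of the summed FPKM of both ligands in wild-type frontal, 72.5% in Twist1+/- frontal, 81.8% in wild-type parietal bone and 69.8% in the parietal library labelled Twist1+/-, so the wild-type parietal library was the one with the smallest share of Il34. The sum itself was 26.2, 21.6, 27.3 and 34.7 FPKM in that order.

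Summed markers of tissues that hold cells known for IL-34, neurons with glia and epidermis, were also higher in the parietal library labelled Twist1+/- than in wild-type parietal bone. Between the frontal bones the sum for epidermis was higher in Twist1+/- and Il34 was lower. The sum for neurons and glia was higher in Twist1+/- frontal bone with Mbp included and lower without it. The 10 markers of neurons and glia summed to 449 FPKM in wild-type frontal, 473 FPKM in Twist1+/- frontal and 163 FPKM in wild-type parietal bone, against 482 FPKM in the parietal library labelled Twist1+/-. Between the parietal libraries 4 of these 10 were past 3-fold, all higher in the parietal library labelled Twist1+/-, with Mbp, the myelin basic protein, at 34.8 and 270.0 FPKM. Without Mbp the other 9 summed to 342, 265, 128 and 212 FPKM in the order of libraries above. Of these sums Tmem119 gave 110, 90.2, 96.7 and 125 FPKM in the same order. The neuronal markers Snap25, Syt1, Tubb3 and Nefl were at 18.6, 4.55, 25.8 and 1.66 FPKM in the parietal library labelled Twist1+/-. Each was lower there than in either frontal library, and all but Nefl were higher there than in wild-type parietal bone. The 10 markers of epidermis summed to 3.64, 8.16, 3.14 and 12.1 FPKM in that order of libraries, and 4 of the 5 that could be tested were past 3-fold between the parietal libraries, all higher, among them the basal keratin Krt5 at 0.0936 and 3.17 FPKM. Dsg3 was listed at 0 in the parietal library labelled Twist1+/- and Ivl in wild-type parietal bone. The part of these cells in the Il34 values was not tested. The other lists are given as wild-type frontal, Twist1+/- frontal, wild-type parietal and labelled Twist1+/- parietal. Meninges summed to 2107, 422, 165 and 517 FPKM, and skeletal muscle to 114, 1424, 3773 and 1814. Cartilage summed to 356, 254, 140 and 338, endothelium to 169, 180, 160 and 203, and neutrophils to 15402, 17129, 7513 and 9702. Wild-type parietal bone was thus highest for skeletal muscle and lowest for the rest. Col11a2 carried most of each cartilage sum, and between the wild-type bones 3 cartilage markers were higher and 1 lower in parietal bone past 3-fold.

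Csf1r encodes the receptor of both cytokines on monocytes, macrophages and osteoclasts, and lies at chr18:61265226-61291803 on the plus strand, with 21 exons, sharing 871 bases of exon with Hmgxb3 on the opposite strand, and whether the counting used strand is not stated. It was at 69.3 FPKM in wild-type and 77.3 FPKM in Twist1+/- frontal bone, 121 FPKM in the wild-type parietal library and 108 FPKM in that labelled Twist1+/-. Both parietal libraries were above both frontal ones, 1.74-fold in wild type and 1.39-fold in the libraries labelled Twist1+/-. The parietal libraries differed 1.12-fold, lower in the one labelled Twist1+/-, a direction that turned with Gapdh at the same level (log2 ratio of 0.23), and the frontal libraries also differed 1.12-fold, higher in Twist1+/-. The ratio of Tnfrsf11a to Csf1r was 0.0676 and 0.0599 in wild-type and Twist1+/- frontal bone, 0.103 in wild-type parietal bone and 0.0559 in the parietal library labelled Twist1+/-.

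The receptors were set beside markers of the cells that carry them. The 12 markers of osteoclasts, none listed at 0, summed to 2745 FPKM in wild-type and 3399 FPKM in Twist1+/- frontal bone. The sums were 9426 FPKM in the wild-type parietal library and 6927 FPKM in that labelled Twist1+/-, the same order as Csf1r. Ctsk and Acp5 made up most of each sum, so this order is mainly theirs. Wild-type parietal bone exceeded frontal bone past 3-fold for 6 of the 12, and none was past 3-fold the other way. Acp5, the tartrate-resistant acid phosphatase, was at 1098 and 3345 FPKM in wild-type frontal and parietal bone and Ctsk, the collagen-degrading protease cathepsin K, at 1027 and 4782 FPKM. Between the parietal libraries 0 of the 12 were past 3-fold, and Acp5 and Ctsk were at 2990 and 2601 FPKM in the parietal library labelled Twist1+/-. Mmp9, the next most abundant, was the only 1 of the 12 higher in that library, at 971 against 747 FPKM in wild-type parietal bone. The median log2 ratio of the 12 was -0.26. The 14 markers of monocytes and macrophages, also with none at 0, summed to 1336 FPKM in wild-type frontal, 1343 FPKM in Twist1+/- frontal and 1206 FPKM in wild-type parietal bone, against 1113 FPKM in the parietal library labelled Twist1+/-. Lyz2, the lysozyme of myeloid cells, carried most of the frontal sums, and without it the other 13 summed to 438, 398, 729 and 543 FPKM in that order, so that wild-type parietal bone was then the highest. Between the wild-type bones 3 of the 14 were higher and 1 lower at 2-fold, with a median log2 ratio of 0.60. Only Mrc1, the mannose receptor of macrophages, was past 3-fold in any of the 4 comparisons, at 29.1 FPKM in the wild-type parietal library and 9.58 FPKM in that labelled Twist1+/-, and with the GC group median subtracted its log2 ratio was -1.01, under 3-fold. The part of osteoclast or macrophage number in the levels of Tnfrsf11a and Csf1r was not tested.

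**Figure D3:**
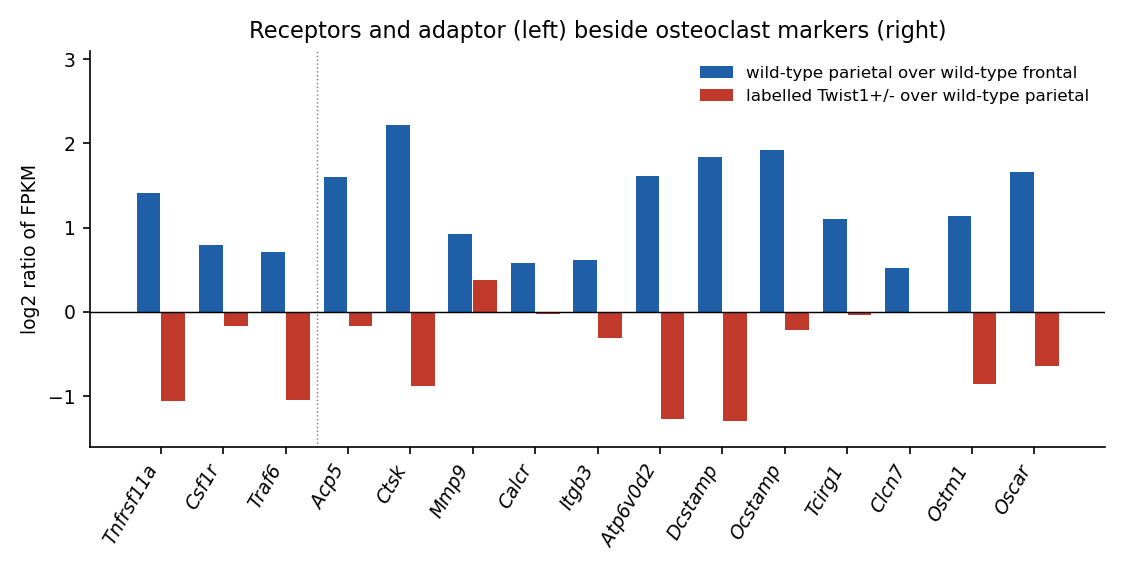
Log2 ratio of FPKM (vertical axis) for Tnfrsf11a, Csf1r and Traf6, left of the dotted line, and for the 12 osteoclast markers, right of it, between wild-type parietal and frontal bone (blue) and between the parietal library labelled Twist1+/- and wild-type parietal bone (red), 1 library on each side of a ratio. All blue bars lie above 0, with Tnfrsf11a at 1.41, and most red bars lie below 0, with Tnfrsf11a at -1.05.

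The comparison of the parietal libraries was taken over all genes to read these values against. At 3-fold 0 of the 7 genes were called, against 8.19% of the 13914 genes tested. At 2-fold, Il34 was higher in the parietal library labelled Twist1+/-, as were 10.8% of all genes, and Tnfrsf11b, Tnfrsf11a and Traf6 were lower, as were 9.4% of all genes. The 3 lower genes lay between the 7.67th and 8.18th percentiles of log2 ratios, and Il34 lay at the 90.6th.

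These libraries also differed by base composition. Across 12554 genes the parietal log2 ratio correlated with the GC content of the longest coding transcript (Spearman's rho of 0.546, across genes, which are not independent replicates), from a median of -0.59 in the group of lowest GC content to 0.70 in the highest. The 3 lower genes had GC contents of 42.9% (Tnfrsf11b), 47.8% (Tnfrsf11a) and 45.7% (Traf6), where all genes had medians of -0.59, -0.33 and -0.47, and Il34 had 57%, where the median was 0.45. With these medians subtracted, the log2 ratios became -0.49 for Tnfrsf11b, -0.73 for Tnfrsf11a, -0.57 for Traf6 and 0.62 for Il34, and 0 of the 7 genes remained past 2-fold. Tnfsf11, at 44.9% GC, moved the other way, from 0.43 to 0.90, from the 73.4th to the 90.2nd percentile. The part of base composition in these values beyond this subtraction was not tested.

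**Figure D4:**
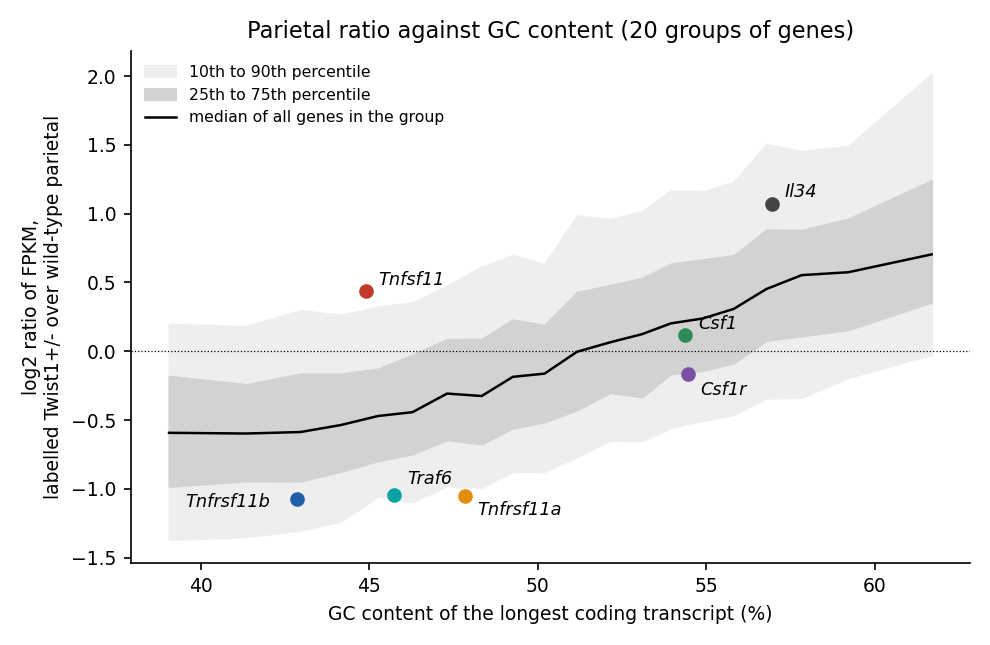
Log2 ratio of FPKM between the parietal library labelled Twist1+/- and wild-type parietal bone (vertical axis) against GC content of the longest coding transcript (horizontal axis, %), with the median (line) and percentile bands of all genes in 20 groups of GC content and the 7 genes as points. The median runs from -0.59 to 0.70, and Tnfsf11 at 0.43 lies above the bands while Tnfrsf11b, Tnfrsf11a and Traf6 lie below the line.

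Between the frontal bones the genotypes differed by at most 1.25-fold for the 7 genes. None was past 2-fold or 3-fold, where 4.98% of the 14341 genes tested were higher and 2.2% lower in Twist1+/- at 2-fold and 3.89% were past 3-fold either way. The log2 ratios were 0.24 for Tnfsf11, 0.16 for Csf1r, -0.19 for Tnfrsf11b, -0.26 for Csf1 and -0.32 for Il34, and those of Tnfrsf11a (-0.02, or 0.07 after GC subtraction and 0.03 with equal medians) and Traf6 (0.01, or -0.09 with Gapdh at the same level) had no stable sign.

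Between the wild-type bones 6 of the 7 genes were higher in parietal bone and Il34 was lower, with log2 ratios of 1.41 for Tnfrsf11a, 0.80 for Csf1r, 0.72 for Traf6, 0.41 for Tnfsf11, 0.33 for Tnfrsf11b, 0.25 for Csf1 and -0.57 for Il34. The signs of Tnfsf11, Tnfrsf11b (-0.11) and Csf1 turned with Gapdh at the same level, Gapdh itself having a log2 ratio of 0.44. None was past 3-fold, against 13.3% of the 14214 genes tested, and Tnfrsf11a alone was past 2-fold, against 11.2% higher and 15.6% lower. It kept this place after GC subtraction, at 1.40.

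Between the bones of the libraries labelled Twist1+/- none was past 2-fold, where 2.98% of the 14305 genes tested were higher and 8.92% lower in the parietal library, and none past 3-fold, where 4.09% were. The log2 ratios were 0.82 for Il34, 0.63 for Csf1, 0.61 for Tnfsf11, 0.48 for Csf1r and 0.38 for Tnfrsf11a, and -0.34 for Traf6 and -0.55 for Tnfrsf11b. Il34 was at the 94.8th and Csf1 at the 90.1st percentile of all genes here. GC content went with the ratio in this pair also (Spearman's rho of 0.416 across 12979 genes), and the subtraction left 0.56 for Il34 and 0.50 for Csf1. The 4 comparisons share libraries in pairs, so they are not independent of each other.

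**Figure D5:**
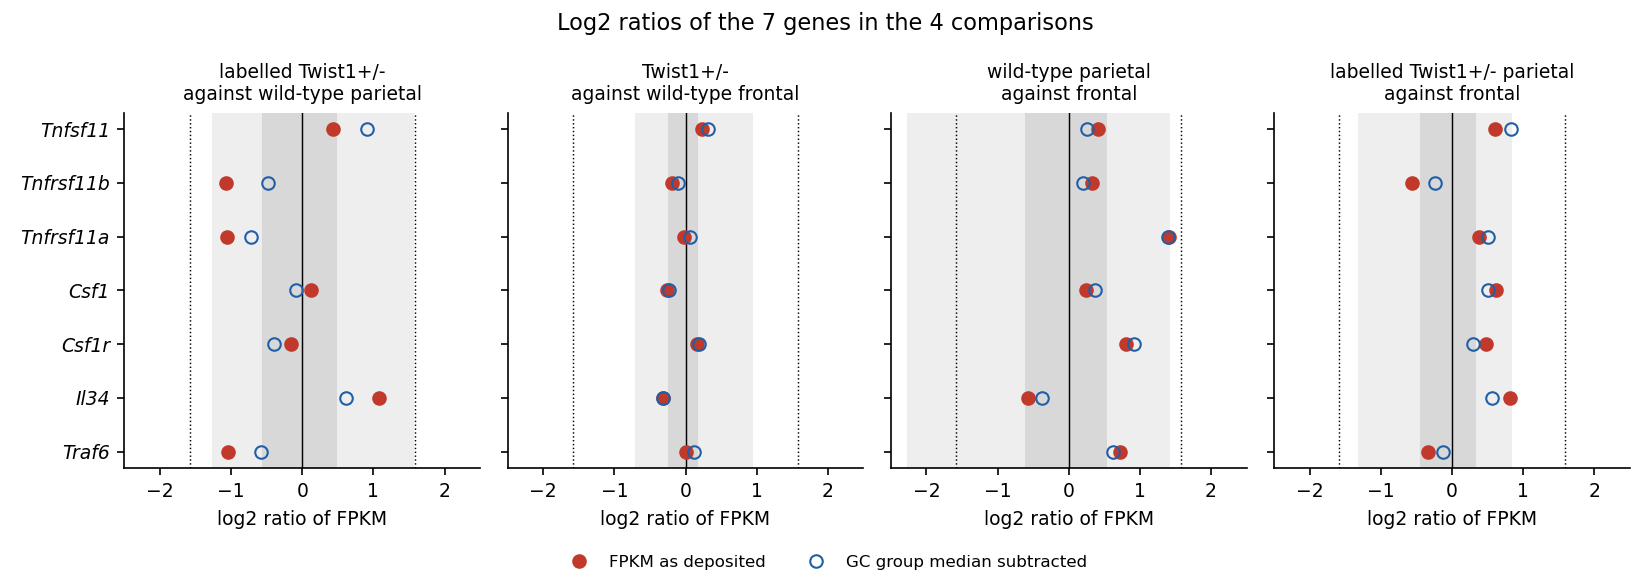
Log2 ratio of FPKM (horizontal axis) of the 7 genes in the 4 comparisons, as deposited (filled) and after subtraction of GC group medians (open), with the middle 50% and 90% of all genes tested as dark and light bands and dotted lines at 3-fold, 1 library on each side of a ratio. No point passes a dotted line, and Tnfrsf11a in the wild-type bones, at 1.41, comes closest.

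Downstream of RANK, 23 genes were followed, from TRAF proteins and NF-κB subunits to NFATc1, the master transcription factor of osteoclasts. None was past 3-fold in any of the 4 comparisons, with a median difference of 0.18 in log2(FPKM + 1) for the parietal libraries, where the median of all genes was -0.05. Nfatc1 was at 22.3 FPKM in wild-type and 27.1 FPKM in Twist1+/- frontal bone, 27.7 FPKM in the wild-type parietal library and 33.6 FPKM in that labelled Twist1+/-. Map3k7, the kinase TAK1 that acts directly after TRAF6, was at 15.7 and 15.7 FPKM in the frontal libraries, 24.4 FPKM in the wild-type parietal library and 12.0 FPKM in that labelled Twist1+/-, the gene nearest to Traf6 in its pattern.

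RANK signalling needs a second input from receptors with ITAM adaptors, and 11 of these genes were measured. Of the 11, 2 were higher past 3-fold in wild-type parietal than frontal bone, Oscar, the osteoclast-associated receptor that is also among the osteoclast markers, at 57.4 and 18.2 FPKM, and Trem2, a receptor of myeloid cells, at 16.5 and 3.85 FPKM, and 0 were in the other 3 comparisons. The median difference in log2(FPKM + 1) was 0.29 between the wild-type bones, where all genes had -0.01, and -0.31 between the parietal libraries, where all genes had -0.05. Of 16 genes of CSF1R signalling and myeloid transcription factors, 2 were past 3-fold, both lower in the parietal than the frontal library of those labelled Twist1+/-. These were Mitf, an osteoclast transcription factor, at 4.50 and 15.4 FPKM, and Cbl, a ubiquitin ligase that turns CSF1R over, at 2.06 and 8.10 FPKM. In wild-type frontal and parietal bone Mitf was at 5.32 and 4.93 FPKM, so only the Twist1+/- frontal library stood out. Cbl was at 7.81 and 4.57 FPKM in the same wild-type bones. With GC group medians subtracted Cbl, at a log2 ratio of -1.86, was still past 3-fold and Mitf, at -1.46, was not. In the other 3 comparisons 0 of the 16 were called, with a median difference of 0.34 between the parietal libraries.

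Of 20 inducers of Tnfsf11 in stromal and bone cells, 15 or 16 could be tested, and between the genotypes 0 were past 3-fold in either bone, with a median of 0.01 for the parietal log2(FPKM + 1) differences. Pth1r, the receptor of parathyroid hormone, was at 112 and 119 FPKM in wild-type and Twist1+/- frontal bone, 114 FPKM in the wild-type parietal library and 250 FPKM in that labelled Twist1+/-. Vdr, the receptor of vitamin D, was at 62.6, 51.2, 37.3 and 64.0 FPKM in that order. Both were highest where Tnfsf11 was, and were named after their values were seen. The parietal log2 ratio of Pth1r was 1.13 without GC subtraction. Its GC content was 59.6%, and the group of genes with a median GC content of 59.2% had a median log2 ratio of 0.57. Vdr was nearly as high in wild-type frontal bone, where Tnfsf11 was lowest. Other inducers were lower in the parietal library labelled Twist1+/-, such as Osmr, a receptor of oncostatin M, with a log2 ratio of -0.83. At 2-fold, without GC subtraction, 2 of those tested were higher there and 0 lower, and Vdr was not among them. In wild-type bones 2 inducers were lower in parietal than frontal bone past 3-fold, Ptgs2, the inducible cyclooxygenase, at 0.264 and 1.28 FPKM, and Ptger4, a prostaglandin E2 receptor, at 0.903 and 3.01 FPKM.

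Among 24 other secreted or membrane regulators, 4 of the 20 tested were past 3-fold between the parietal libraries, with a median difference of -0.38 in log2(FPKM + 1). Tgfb1, a growth factor stored in bone matrix, was at 97.4 FPKM in the parietal library labelled Twist1+/- and 28.8 FPKM in wild-type parietal bone. Lower in the parietal library labelled Twist1+/- were Il10, an inhibitory cytokine, at 0.738 and 4.78 FPKM, Ccl9, a chemokine of osteoclasts, at 20.2 and 62.7 FPKM, and Sema3a, an inhibitor of osteoclast formation made by osteoblasts, at 1.80 and 6.09 FPKM. Only Il10 was past 3-fold once the GC group median was taken off, with a log2 ratio of -2.16. In the wild-type bones 5 of 20 were past 3-fold, all higher in parietal bone, Il10, Ccl9, the chemokines Ccl2 and Ccl3 and the proteoglycan Sdc1, and in the frontal bones 1 of 19 was, Wnt16, at 0.594 FPKM in Twist1+/- and 1.79 FPKM in wild type.

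The genes whose pattern over the 4 libraries was most like each of the 7 were taken as those with the smallest Euclidean distance in log2 FPKM centred on the 4-library mean, among 12291 genes. For Tnfsf11 they were Syde1 (a distance of 0.0313), Cib1 and Cst3, for Tnfrsf11b they were Foxn3 (0.00921), Zfp280c and Gin1, and for Tnfrsf11a they were 0610037L13Rik (0.0362), 2610524H06Rik and Sertad4. Grhpr (0.0522), Wdr83 and Mageh1 lay nearest to Csf1, Gpx4 (0.0529), Rit1 and Wbp1 to Csf1r, Fbln2 (0.0197), Trmt61a and Slc35a2 to Il34, and Map3k7 (0.0628), Clec4a2 and Zc3h14 to Traf6. No other of the 7 genes came near to these distances, the closest pairs being Tnfrsf11b with Traf6 at 0.330 and Csf1 with Csf1r at 0.409. Each pattern holds only 4 values, and closeness in it says nothing of shared function or control.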

How the data were processed

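RNA of the frontal and the parietal bone of both genotypes was poly(A)-selected, prepared with a stranded kit and read from a single end over 75 bases, and 1 set of values per condition is analysed here. The authors aligned reads to mm9 with STAR 2.4.2a and made FPKM values with Cuffdiff (Cufflinks 2.2.1), as deposited, 1 per gene and library; the strand setting, the scaling option and any pooling of replicates are not given in the sources used here. Each library was assigned by its label, and no column was left out. Log2 ratios, ratios between genes and summed list levels were computed in Python 3.11.15 with numpy 2.4.6, pandas 2.3.3 and matplotlib 3.10.9, without a pseudocount unless stated. A call needed more than 3-fold and at least 1 FPKM in the higher library, and with 1 set of values per condition no test was run. GC content came from the longest coding transcript of GENCODE M1 (NCBIM37), and genes were set in 20 GC groups per comparison, with values for over 80% of the genes tested. For ratios between genes the 20 groups were formed over genes at or above 1 FPKM in all libraries. Positions come from the same annotation. The genes named are the 7 studied, list genes past 3-fold (up to 4 per list and comparison by size, with wild-type Il10, Ccl9, Ccl2, Ccl3 and Sdc1 given together as 5), leading or called markers, Twist1, Gapdh and the 3 nearest genes by pattern. Nfatc1, Pth1r, Vdr, Osmr, Phex, Pdpn, Nefl, Dsg3, Ivl and Hmgxb3 were named outside this rule. The genes, the 5 pathway lists and the 11 marker lists were chosen with earlier results of these data known. Alternatives were pseudocounts of 1 and 0.1 FPKM, equal medians, equal Gapdh, GC subtraction, thresholds of 2-fold and 8-fold, and no minimum or 10 FPKM. Marker sums without Lyz2, Bglap or Mbp were added after the data were seen, and the neuronal markers were set apart from the glial ones then too.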

Additional observations from a re-analysis of the deposited data

Results flagged for a closer look

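For 5 of the 7 genes a contrast went one way in one bone or genotype and the opposite way in the other, which drew attention to them; with 1 library per condition none of these differences was tested. The genotype log2 ratio of the parietal bones less that of the frontal bones was 1.39 for Il34, 0.38 for Csf1, -0.32 for Csf1r and -1.06 for Traf6. Taken by bone, the parietal over frontal log2 ratio in the libraries labelled Twist1+/- less that in wild type was 1.39 for Il34 and -1.06 for Traf6, the same quantities by construction, and -0.89 for Tnfrsf11b. Opposite signs were common among the 12291 genes at or above 1 FPKM in all libraries, at 46.0% for the genotype contrast and 36.6% for the bone contrast, and 90% of these genes had a difference between -1.18 and 1.28. The count of 5 joins both contrasts, and the share of all genes with opposite signs in either contrast, which is the larger, was not computed. Il34 lay at the 95.9th percentile and Traf6 at the 6.79th. The signs of Csf1 and Csf1r in parietal bone and of Traf6 in frontal bone turn under another scaling or GC subtraction.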

How the results depend on the processing

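The number of the 7 genes past the threshold was 0 in each of the 4 comparisons at 3-fold, and at 2-fold it was 4 between the parietal bones and 1 between the wild-type bones. At 2-fold with GC subtraction, chosen after the data were seen, it was 0 between the parietal bones and 1 between the wild-type bones. Of 140 log2 ratios recomputed with pseudocounts, equal medians, equal Gapdh or GC subtraction, 132 kept their sign and their side of 3-fold. The 8 that turned were small: with equal Gapdh, Csf1r between the parietal bones (0.23), Traf6 between the frontal bones (-0.09), and Tnfsf11 (-0.03), Tnfrsf11b (-0.11) and Csf1 (-0.20) between the wild-type bones; with GC subtraction, Csf1 between the parietal bones (-0.08) and Tnfrsf11a between the frontal bones (0.07); and with equal medians, Tnfrsf11a between the frontal bones (0.03). The cause was not tested. The Tnfsf11 to Tnfrsf11b ratio stayed on its side of 1 in every library with either pseudocount or GC subtraction, at 1.66 to 1.80 in the library labelled Twist1+/- parietal. No paired analysis was possible because there is 1 library per condition. The read number is given only as an average over replicates, so no counting error is given for a single library.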
